A study of Caenorhabditis elegans with 2 samples.

Results

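The 241 regions described here were ELT-3 binding peaks whose summit lay in an intron of an autosomal protein-coding gene in the nematode Caenorhabditis elegans. They were taken from a set of 1014 peaks that passed a threshold on the irreproducible discovery rate (IDR). That rate measures how consistently peaks rank between replicates. Ranks in the single-replicate lists used here could still differ widely, and 7 of the 241 peaks overlapped no peak of either list. A peak was included if its summit was not on X, lay within the span of a protein-coding gene and lay in no exon of any such gene. The remaining peaks of the IDR set comprised 310 autosomal intergenic peaks near a gene start, 184 other autosomal intergenic peaks, called distal here, 47 autosomal exonic peaks and 232 peaks on X. A summit was near a start if a protein-coding gene began at most 1500 bp downstream or 500 bp upstream of it, on the strand of that gene.

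ChIP-seq measured where ELT-3 sat on chromatin in whole first-stage (L1) larvae of mixed sex. The strain, OP75, is mutant for unc-119 (allele ed3, III) and carries wgIs75, a transgene expressing ELT-3 fused at its C terminus to GFP and FLAG. The data formed 1 group of 2 biological replicates, sheared by sonication, with no second genotype or stage, and the control used for peak calling was not analysed here. Larvae were profiled whole, so the cell type in which a region was bound cannot be told from these data, and binding of the tagged protein stands for that of ELT-3. Replicate 1 held 17087 peaks, replicate 2 held 7079 and the pooled list 30000. Depth cannot be given, since the lists hold no read counts.

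The transcription factor ELT-3 belongs to the GATA family and acts in the epidermis (hypodermis) together with other GATA factors. GATA factors contact short sites of the form WGATAR (with A or T at W and A or G at R) through zinc fingers. Introns of C. elegans genes are mostly short, while the long ones can hold enhancers and the promoters of shorter transcripts that start inside the gene.

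Among the strongest intronic peaks, several had more than 1 GATA site close to the summit. Sequences are shown only for peaks on II, III, IV and V, so stronger peaks elsewhere are left out of this choice. The next 4 are the highest-signal peaks on those chromosomes with at least 2 WGATAR sites among the 101 bases centred on the summit. Each is given 5′ to 3′ on the strand of the host gene, from the RefSeq copy of the WBcel235 (ce11) genome, with WGATAR on either strand in capitals.
D2023.3 (V:11802562-11802662, minus strand): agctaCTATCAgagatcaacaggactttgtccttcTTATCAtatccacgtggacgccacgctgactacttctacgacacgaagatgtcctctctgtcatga
mthf-1 (II:7776874-7776974, minus strand): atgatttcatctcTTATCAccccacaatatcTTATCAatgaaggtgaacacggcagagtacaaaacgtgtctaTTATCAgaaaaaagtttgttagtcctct
pmt-2 (V:4630454-4630554, plus strand): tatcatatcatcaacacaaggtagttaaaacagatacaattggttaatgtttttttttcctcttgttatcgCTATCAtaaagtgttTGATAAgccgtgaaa
eppl-1 (IV:8450649-8450749, minus strand): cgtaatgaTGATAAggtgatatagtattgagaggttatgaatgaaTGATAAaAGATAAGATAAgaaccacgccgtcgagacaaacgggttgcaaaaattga
In eppl-1, whose product is related to ethanolamine-phosphate phospho-lyases, 4 sites fell in this window, and the last 2 share a base. In mthf-1, which encodes methylenetetrahydrofolate reductase, all 3 sites had the letters TGATAA, read here as TTATCA on the host strand. The window of pmt-2, a phosphoethanolamine methyltransferase gene, held a TGATAG and a TGATAA, both downstream of the summit.

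On the same 4 chromosomes, the mthf-1 peak was also one of the 2 highest-signal peaks with a WGATAR site for which another transcript of the host was annotated to start within the next 1500 bp. The other was in C28H8.2, with WGATAR again in capitals. Of peaks with the hexamer GAGAGA but no WGATAR in the window, the 2 with the highest signal there lay in Y48C3A.5 and in lin-1, an ETS-family transcription factor gene. Capitals there mark GAGAGA on either strand.
C28H8.2 (III:5921458-5921558, plus strand): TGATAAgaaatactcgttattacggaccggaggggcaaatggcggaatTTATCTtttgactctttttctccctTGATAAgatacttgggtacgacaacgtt
Y48C3A.5 (II:13291634-13291734, plus strand): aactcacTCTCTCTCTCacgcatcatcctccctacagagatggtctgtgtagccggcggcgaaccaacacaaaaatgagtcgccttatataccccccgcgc
lin-1 (IV:2281484-2281584, minus strand): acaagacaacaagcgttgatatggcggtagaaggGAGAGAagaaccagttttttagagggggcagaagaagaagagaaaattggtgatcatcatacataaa
One of the 3 sites in C28H8.2 was centred 0.5 bp from the summit. In Y48C3A.5, 3 overlapping copies of the motif formed 1 GA run upstream of the summit.

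The peaks lay in 189 host genes, 1.14% of the 16627 autosomal protein-coding genes with intronic sequence. Of these hosts, 154 held 1 peak, 22 held 2, 10 held 3, 2 held 4 and 1 held 5. The 35 hosts with more than 1 peak thus accounted for 87 of the 241 peaks, and 27 of the 208 bound introns held more than 1. Hosts were long, with a median span of 6949 bp against 2033 bp over all genes with an intron. This comparison is per gene, and a longer gene offers more intronic sequence in which a summit can fall. Chromosomes I to V carried 51, 52, 42, 47 and 49 of the peaks, or 8.497, 11.0, 7.91, 8.20 and 8.14 per Mb of intronic sequence. The median peak was 256 bp wide, and nearly all peaks had exactly this width. It thus does not tell how far binding extended at single peaks. At this width, 54 of the peaks (22.4%) reached into an exon of a protein-coding gene although their summit did not.

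The 20 intronic peaks with the highest signal, the authors' own score for each peak, included genes of metabolism and of gene control. Within the IDR set the signal of the intronic peaks ran from 46.2 to 200.4, with a median of 60.6. The strongest peak was in the 166 bp first intron of dhp-1 (I:7243910-7243973, signal 200.4), a dihydropyrimidinase gene, only 51 bp from the annotated 5′ end, with 3 WGATAR sites. Its ranks were 33 and 41 in replicates 1 and 2. The next was in intron 2 of pck-2 (I:7867047-7867302, signal 178.0), which encodes phosphoenolpyruvate carboxykinase, with 2 sites. It ranked 17 and 70 in the replicates. The third was in the 6107 bp first intron of let-607 (I:6574574-6574829, signal 164.2), a CREBH-type bZIP transcription factor gene, and ranked 46 and 8. That window held no WGATAR.

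Next in signal were peaks in the lipase-related gene lips-10 (II:8440817-8441072, signal 146.1, no WGATAR), in D2023.3 (V:11802484-11802739, signal 142.1) and in cox-6B (III:2785915-2786170, signal 127.4), which encodes a subunit of cytochrome c oxidase. The cox-6B peak was annotated to a first intron of 86515 bp, the longest that held a peak. It lay 86380 bp from the 5′ end of the longest transcript but only 159 bp upstream of a later start, and it held no WGATAR. The mthf-1 peak (signal 119.4) lay 139 bp upstream of a later start. The pmt-2 peak (signal 118.9) had no later start downstream of it.

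The other strong peaks were in klf-1 (a Krüppel-like factor), the acyl-CoA synthetase gene acs-13, eppl-1, D2030.2, C28H8.2 and paqr-1, of the family of adiponectin receptors. Then came ccch-1 (a CCCH zinc finger gene), mup-4, the arrestin-domain gene arrd-10, F59B10.4, the ABC transporter gene wht-7 and the nuclear hormone receptor gene nhr-31. Their signals ran from 116.1 for klf-1 down to 97.2 for nhr-31. The window of arrd-10 held 4 WGATAR sites and that of paqr-1 held 3 sites and GAGAGA. Of the 20 peaks, 14 had WGATAR, 10 lay in a first intron and 9 lay within 1500 bp upstream of a later start. Each of the 20 overlapped a peak among the 1014 highest-signal peaks of replicate 1 and one among those of replicate 2.

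The intronic peaks favoured first introns. An intron was numbered in the longest transcript of the host that has an intron at the summit, and the whole autosomal intronic sequence, numbered alike, served as background. First introns held 82 of the 241 summits, or 34.02% (95% Wilson interval 28.3 to 40.2), against 24.4% of intronic bases (exact binomial test, two-sided, p = 9.12e-04). Intron 2 held 40 summits (16.6% against 16.2% of bases), intron 3 held 21 (8.71% against 12.7%) and later introns held 98 (40.7% against 46.6%). The highest intron number was 27, in rol-3, a gene named here after its value was seen. Summits were taken as independent in this test although some share a host. With 1 peak per host the first-intron share was 36.5% of 189. Among the 1014 highest-signal peaks of replicate 2 alone, with replicate 1 left out, the excess over intronic bases rose from 9.64 to 14.9 percentage points.

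They also favoured long introns. Introns of at least 1000 bp held 178 summits, or 73.9% (67.97 to 79.001), against 48.1% of intronic bases (exact binomial test, two-sided, p = 5.07e-16). The median intron with a peak, counted per peak, was 2655 bp long, with quartiles at 943 and 5917 bp and a range from 151 to 86515 bp. A median intronic base lay in an intron of 946 bp, and the median over all 84894 autosomal introns was 65.5 bp. Since first introns are often long, the first-intron share was also taken within introns of at least 1000 bp, a split chosen after seeing the data. There first introns held 66 of 178 summits, 37.1% against 28.9% of bases (exact binomial test, two-sided, p = 0.0202).

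Intronic peaks often lay just upstream of a second start of the host. A later annotated start stood within 1500 bp downstream of 81 summits, or 33.6% (27.9 to 39.8), which was the case for 13.4% of intronic bases (exact binomial test, two-sided, p = 1.13e-15). Within 500 bp the count was 49 (20.3% against 5.88%), and within 200 bp it was 26, for which no share of bases is given. In introns of at least 1000 bp the 1500 bp share was 34.3% against 19.1% (p = 2.07e-06, exact binomial test chosen after seeing the data). More than 1 annotated start was present in 139 of the 189 hosts (73.5%), against 28.5% of all genes with an intron. That comparison is per gene and does not allow for the greater length of the hosts (median span 6949 against 2033 bp). Any later start lay downstream of 157 summits, at a median distance of 1335 bp, again with no share of bases given. Of the 82 summits in first introns, 44 (53.7%) had a later start within 1500 bp, and of the 159 in other introns 37 (23.3%) did. The matching shares of bases in first and other introns are not given here, so this split was not set against a background.

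Single peaks show how close the later starts could be. The let-805 peak lay 105 bp upstream of a start in intron 18 of this myotactin gene, and the peak in kin-1, the catalytic subunit of protein kinase A, lay 151 bp upstream of one, 32164 bp from the 5′ end of the gene. The kin-1 peak (signal 67.8) overlapped no peak of replicate 1 and ranked 2142 in replicate 2. The daf-5 peak (signal 66.3), in a 14446 bp first intron, was by contrast 12902 bp from the next start.

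**Figure D1:**
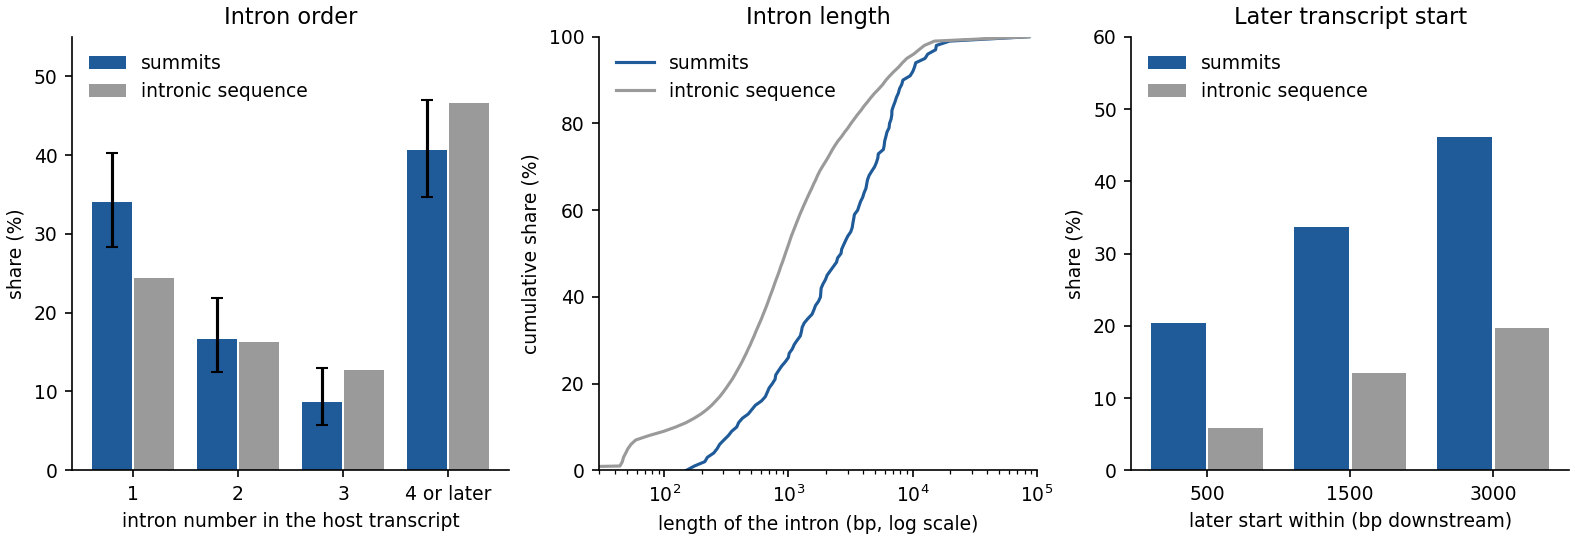
Share of the 241 summits (blue) and of all autosomal intronic bases (grey) by intron number (left, error bars are 95% Wilson intervals), cumulative share by intron length in bp on a log axis (middle), and share with a later transcript start of the host within 500, 1500 or 3000 bp downstream (right). First introns held 34.02% of summits and 24.4% of bases, the curve of the summits lies towards longer introns, and 33.6% of summits against 13.4% of bases had a later start within 1500 bp.

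The peaks lay at varied distances from the annotated 5′ end of their own host. Of the 241 summits, 14 were within 500 bp of it, 77 lay between 500 and 2000 bp, 67 between 2000 and 5000 bp and 83 farther downstream. The median was 3101 bp. Summits upstream of a gene or in an exon were left out by the rule. No share of intronic bases is given for these distances. The near-start window of any protein-coding gene contained 46 summits (19.1%, against 21.0% of intronic bases), and for 32 of these the gene was not the host. After leaving out these 46 peaks, first introns still held 30.8% of the 195 summits, against 17.8% of the matching bases (exact binomial test, two-sided, p = 1.28e-05).

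GATA sites were concentrated at the intronic summits. WGATAR occurred within 50 bp of 137 of 241 summits, or 56.8% (50.5 to 62.9), and in 57 of the equally wide windows 500 bp downstream on the host strand, or 23.7% (18.7 to 29.4). A site was present at the summit alone in 106 pairs and in the flank alone in 26 (exact McNemar test, two-sided, adjusted over 3 motifs, p = 3.51e-12). Only 172 of the 241 flank windows (71.4%) were centred in intronic sequence. For those pairs alone the shares were 55.8% at the summit and 26.7% in the flank. Over all autosomal intronic positions, 18.2% had WGATAR within 50 bp. The summit windows were richer in G and C than the flanks, with medians of 41.6% and 35.6%. The most frequent form, TGATAA, was at 92 summits (38.2%) and in 27 flanks (11.2%), with adjusted p = 1.86e-11 in the same exact test.

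The 137 peaks with WGATAR held 229 sites in all. Their letters were TGATAA in 125 (54.6%), AGATAA in 40, TGATAG in 39 and AGATAG in 25. A single site was present at 79 summits, 2 sites at 32, 3 at 18 and 4 at 8, and 104 summits had none. The eppl-1 window shown above was one of those with 4, as was that of blmp-1, a Blimp-1-like zinc finger gene (signal 82.5). The nearest site was centred a median of 19.5 bp from the summit, within 10 bp in 38 and within 25 bp in 81 of the 137. On the strand of the host lay 55 of the 137 nearest sites, 40.1% (32.3 to 48.5), against 47.8% of the 59573 WGATAR sites in autosomal intronic sequence. That difference did not pass a two-sided exact binomial test (p = 0.0868), while the same test against equal use of both strands gave p = 0.0260. Both comparisons were chosen after seeing the data.

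**Figure D2:**
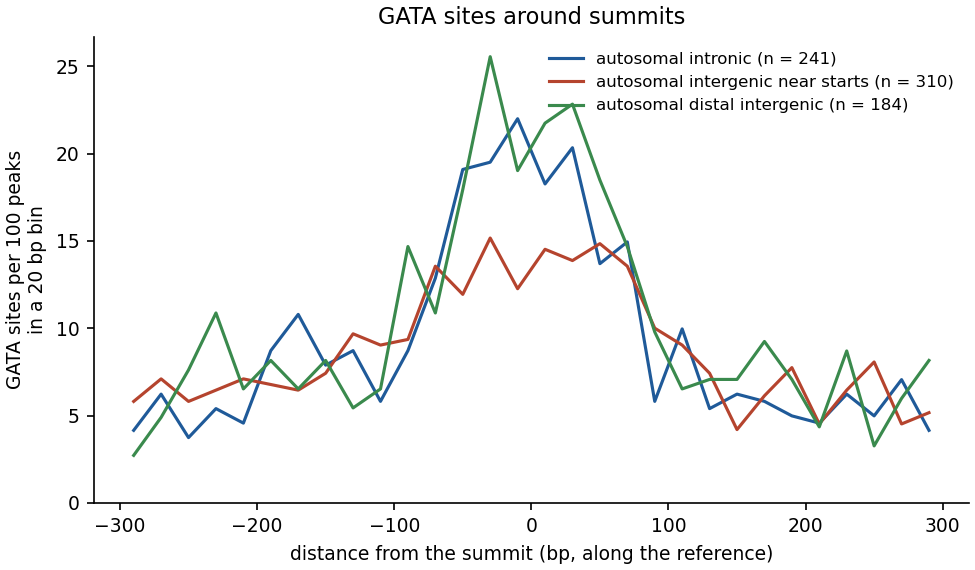
WGATAR sites per 100 peaks in 20 bp bins (vertical) against the distance from the summit in bp along the reference strand (horizontal), for 241 autosomal intronic, 310 near-start intergenic and 184 distal intergenic peaks. The intronic curve reaches 21.99 sites per 100 peaks in the bin just before the summit and is near 5 at the edges. The near-start curve stays at or below 15.2, while the distal curve reaches 25.5, above the intronic one.

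WGATAR was more frequent at intronic peaks than at intergenic peaks near gene starts. It was present at 140 of the 310 near-start peaks, 45.2% (39.7 to 50.7), against 56.8% of the intronic ones (Fisher's exact test, two-sided, adjusted over 2 comparisons, p = 0.0154, odds ratio 1.60). This call was lost with a 25 bp window (8.31 percentage points higher, adjusted p = 0.0661, Fisher's exact test) and among the 507 IDR peaks with the highest signal (12.9 points, adjusted p = 0.0785). With the highest-signal peaks of replicate 1 alone, replicate 2 left out, the difference was 19.98 points against 11.7 in the IDR set. Distal intergenic peaks had WGATAR at 115 of 184 summits, 62.5% (55.3 to 69.2), and the test against intronic peaks was not passed (adjusted p = 0.273, Fisher's exact test). At least 2 sites were found at 58 intronic summits (24.1%), 17.1% of near-start and 30.98% of distal ones, which was not tested. The median GC content of the window was 43.6% near starts and 40.6% at distal peaks, and its part in these differences was not tested. The 69 intronic peaks on X had WGATAR in 59.4% and a later start within 1500 bp in 29.0%, the latter not distinguished from the 33.6% on autosomes (Fisher's exact test, two-sided, p = 0.560).

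A second motif was present, partly in other windows. GAGAGA, a GA repeat that is not a GATA site, occurred at 67 intronic summits, 27.8% (22.5 to 33.8), in 11 flanks (4.56%) and around 4.25% of all intronic positions. The contrast with the flank had an adjusted p of 6.12e-11 (exact McNemar test, two-sided). It was found at 25.2% of near-start and 34.8% of distal peaks, and neither comparison passed (Fisher's exact test, adjusted p = 0.496 and 0.276). The shortfall against distal peaks was a difference of -6.98 percentage points in the IDR set. It was -13.1 points with replicate 1 left out (adjusted p = 0.0118, Fisher's exact test) and -12.5 points among the highest-signal pooled peaks (adjusted p = 0.0201, Fisher's exact test), and both of these passed. WGATAR and GAGAGA were both at 37 intronic summits, GAGAGA without WGATAR at 30, and 74 summits had neither. The let-607 peak with signal 164.2 and the cox-6B peak were among the windows with neither. GAGAGA was at 55 of 178 summits in introns of at least 1000 bp (30.9%) and at 12 of 63 in shorter ones (19.05%), which was not tested.

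**Figure D3:**
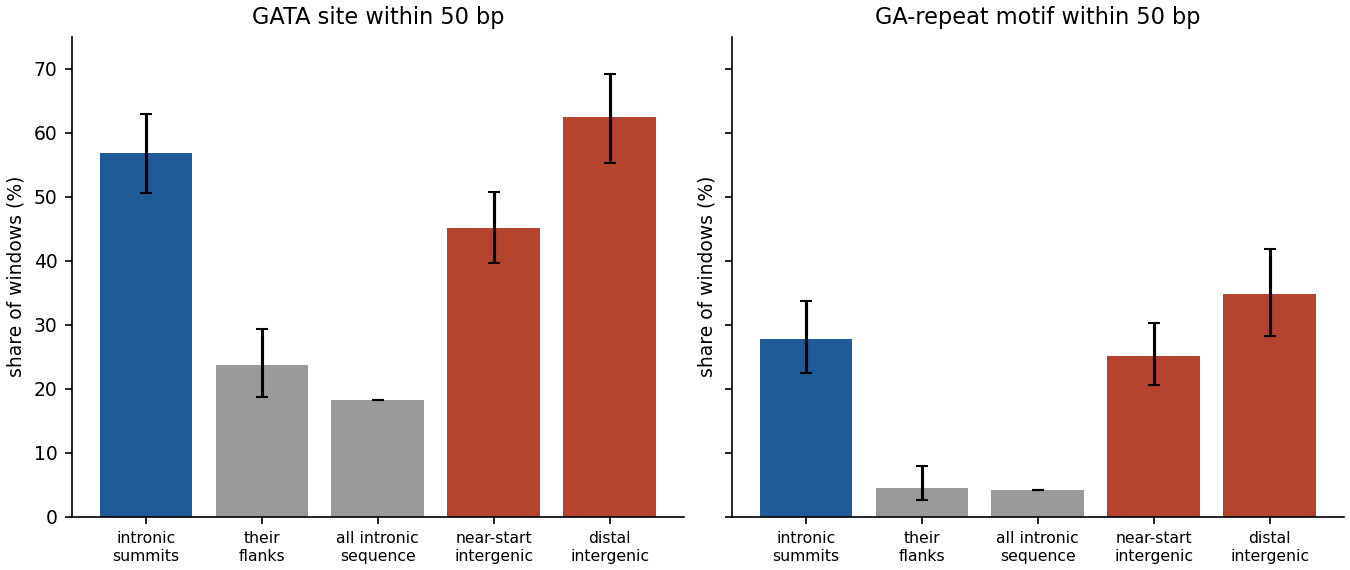
Share of windows within 50 bp (vertical, in percent) that hold WGATAR (left, titled GATA site) or GAGAGA (right, titled GA-repeat motif) for intronic summits, their flanks 500 bp downstream, all autosomal intronic positions and the near-start and distal intergenic summits. Error bars are 95% Wilson intervals, with none given for all intronic positions. Intronic summits are above their flanks for both motifs (56.8% against 23.7%, and 27.8% against 4.56%).

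Among the intronic peaks, differences in GATA share by position did not pass the tests. WGATAR was present at 53 of 82 summits in first introns (64.6%) and at 84 of 159 in other introns (52.8%), which did not pass Fisher's exact test (two-sided, p = 0.0994). The difference of 11.8 percentage points was 0.275 without replicate 1 and 4.43 without replicate 2. It was present at 56.8% of summits with a later start within 1500 bp and at 56.9% of the rest (p = 1, Fisher's exact test). Of the 48 intronic peaks with the highest signal, 31 had WGATAR and 22 lay in a first intron, and of the 48 with the lowest signal, 24 and 16 did.

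Intronic and intergenic peaks were of similar median signal. The median signal was 60.6 for intronic, 62.5 for near-start and 60.1 for distal peaks. The share above the median of the IDR set was 48.1% for intronic and 50.6% for all 494 autosomal intergenic peaks (Fisher's exact test, two-sided, p = 0.531). The 20% of the IDR set with the highest signal, however, held fewer intronic peaks, 15.4% of them against 21.9% of the intergenic ones (Fisher's exact test, p = 0.0385). Of the 241 peaks, 211 overlapped a peak of each replicate by at least 1 bp, and 7 overlapped none of either. The lists of single replicates are labelled as holding background too, so such overlap is a lenient criterion. Overlap with the 1014 highest-signal peaks of both replicates was found for 100 intronic peaks (41.5%) and 48.8% of intergenic ones (Fisher's exact test, two-sided, p = 0.0700). Over the 211 peaks, the ranks in the replicates had a Spearman rho of 0.618, given as a description, with median ranks of 830 and 770.

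**Figure D4:**
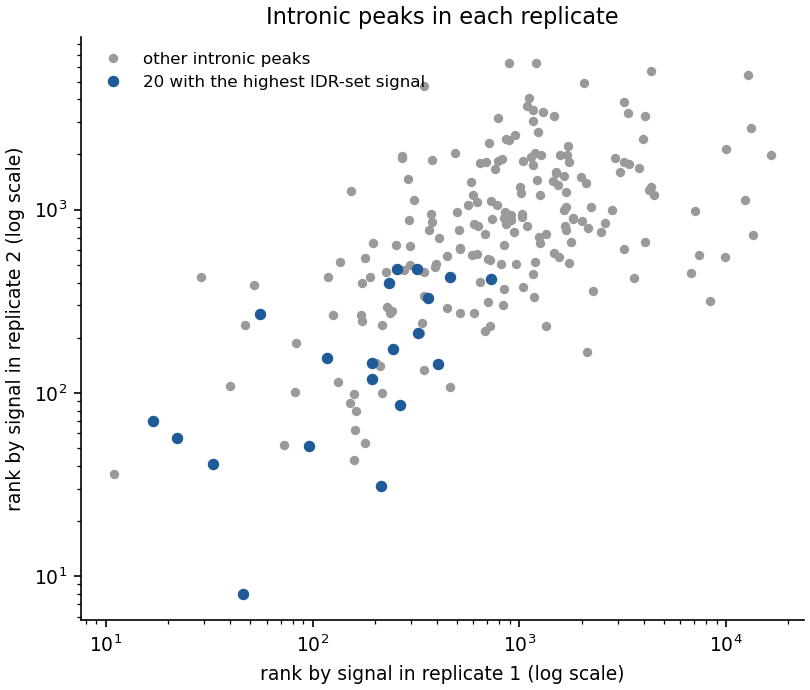
Rank by signal in replicate 1 (horizontal) and replicate 2 (vertical), both on log axes, for the 211 intronic peaks that overlapped a peak in each, where a low rank is a strong peak. The 20 peaks with the highest signal in the IDR set (blue) all rank within the first 1014 in both replicates, and the others (grey) reach rank 16458 in replicate 1.

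Several hosts held clusters of peaks. pkg-2, a cGMP-dependent protein kinase gene, held 5, of which 4 were in its intron 4 of 6824 bp. Their signals were 58.5, 53.6, 67.6 and 53.4 in 5′ to 3′ order, and the peak in intron 5 had 51.7. All but the one with signal 53.6 had a WGATAR site. dkf-2, a protein kinase D gene, held 4 peaks, all in its 15573 bp intron 14, from 31120 to 33139 bp downstream of the 5′ end. Their signals were 65.0, 69.9, 64.9 and 70.7, and only the peak with signal 64.9 had WGATAR. hlh-30, which encodes the homologue of the lysosome and autophagy regulator TFEB, held 4, a pair in each of introns 1 and 2. Their signals were 62.3, 53.2, 61.1 and 49.8 in 5′ to 3′ order, and the second lay 234 bp upstream of a later start. The third overlapped no peak of replicate 2 and the fourth none of replicate 1.

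The 10 hosts with 3 peaks included let-607, ccch-1, anc-1 (nuclear anchorage), lag-1 (the CSL factor of Notch signalling), zfp-1 (an AF10 homologue), aakg-1 (a gamma subunit of AMP-activated kinase), let-526, ppfr-1, gei-1 and cwf-19L2. In let-607 the strong first-intron peak stood beside peaks of signal 56.3 and 60.3, and none of the 3 had WGATAR. In lag-1 all 3 lay in the 5917 bp first intron, with signals of 47.2, 51.8 and 61.7 in 5′ to 3′ order. One aakg-1 peak (signal 80.8) ranked only 205 in the IDR set but 11 in replicate 1, 36 in replicate 2 and 22 in the pooled list. The third anc-1 peak (signal 48.0) and 1 gei-1 peak (signal 46.5) overlapped no peak of either replicate.

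**Figure D5:**
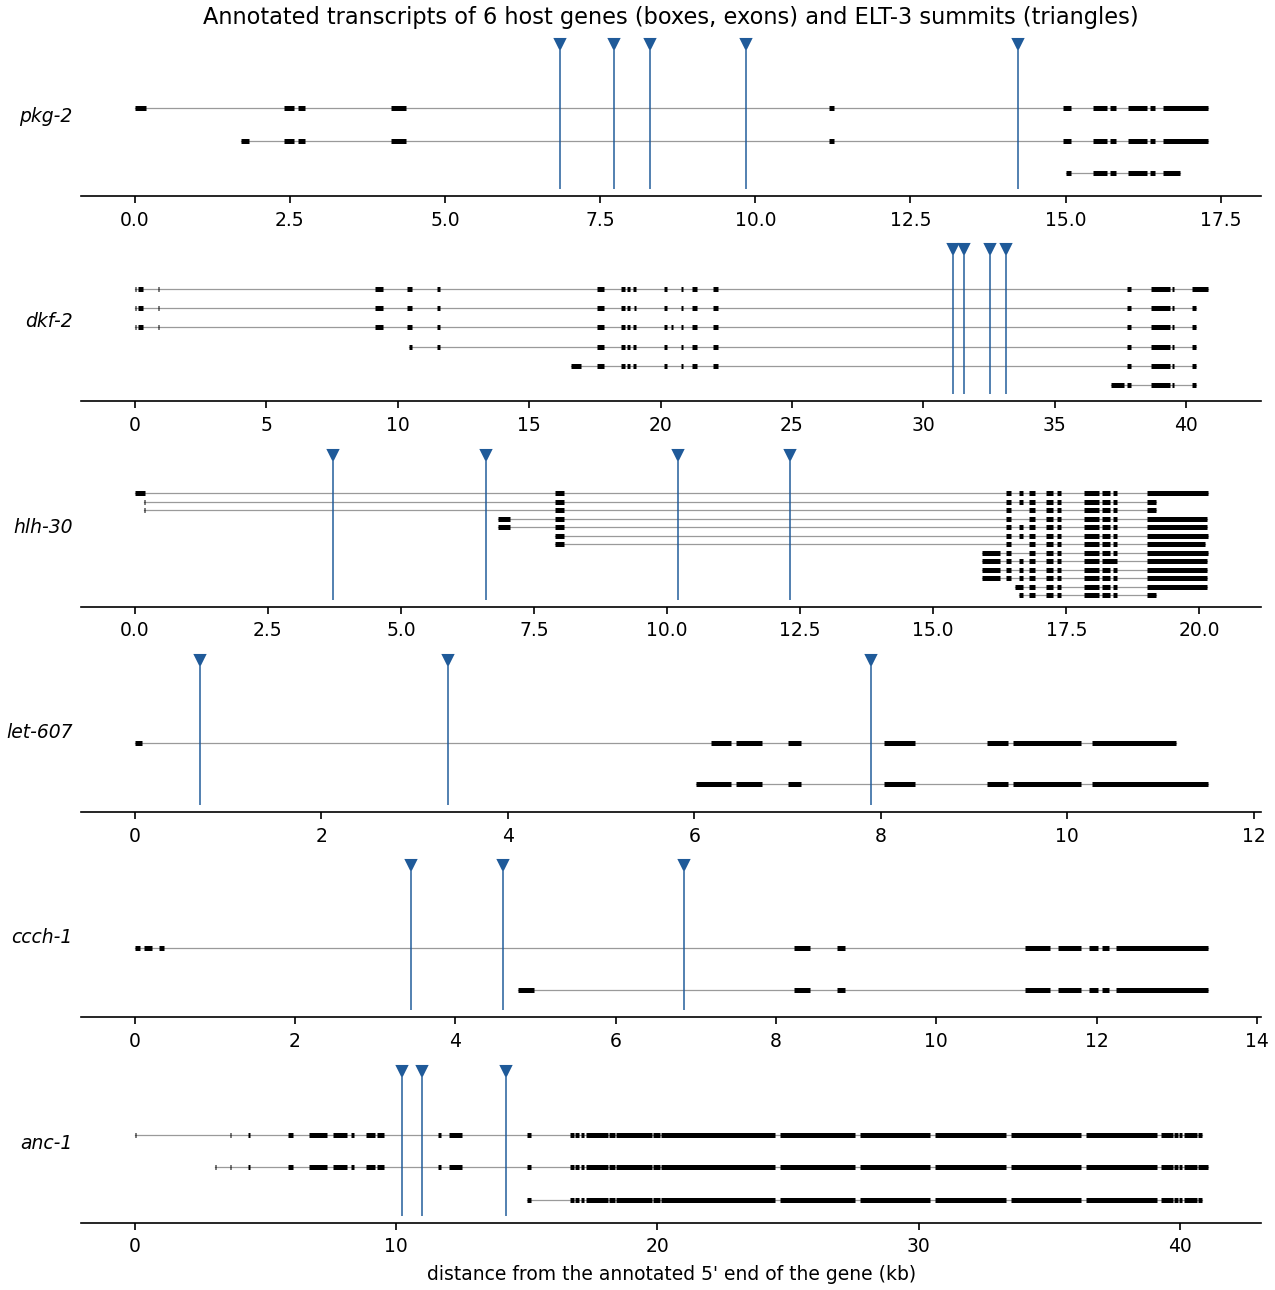
Annotated transcripts of pkg-2, dkf-2, hlh-30, let-607, ccch-1 and anc-1 drawn to scale from the 5′ end of each gene in kb (horizontal), with exons as thick bars, introns as thin lines and ELT-3 summits as triangles. The 4 dkf-2 summits sit in its intron 14, and 4 of the 5 pkg-2 summits share intron 4. In pkg-2, hlh-30, ccch-1 and anc-1, at least 1 summit lies within 1500 bp upstream of a later start. In anc-1 this is the summit whose peak overlapped no peak of either replicate.

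Hosts among genes of epidermal biology were few in number. In the hemidesmosome, matrix, junction and excretory cell lists the share of hosts was nevertheless above the 1.14% over all genes. It ran from 3.45% for excretory cell genes to 18.2% for hemidesmosome and intermediate filament genes. In the molting and cuticle list it was below, at 0.613%, and none of the 16 seam cell and cell fusion genes was a host. The counts are small, and these shares were not tested. Of 11 hemidesmosome and intermediate filament genes with intronic sequence on autosomes, 2 were hosts, mup-4 (signal 102.8, first intron, 1 WGATAR), a transmembrane protein of the apical attachment structures, and let-805 (signal 76.3). Of 19 basement membrane and matrix genes, 2 were hosts: pxn-1, a peroxidasin (signal 82.1), and unc-52, the perlecan gene (signal 64.9, with 3 WGATAR sites). Of 55 junction and polarity genes 4 were hosts, namely the FERM-domain genes frm-7 and frm-2, the p120-catenin gene jac-1 (signal 56.8, with 4 sites) and the innexin gene inx-13. The inx-13 peak ranked 12974 in replicate 1, overlapped no peak of replicate 2 or of the pooled list, and had no WGATAR. Among 163 molting and cuticle genes, col-159 was the sole host (signal 49.3, ranks 13539 and 730 in replicates 1 and 2). The 29 excretory cell genes gave vha-7, a subunit of the vacuolar proton pump (signal 48.0). Long genes offer more intronic sequence, so the density is given too: it was 22.4 peaks per Mb of intron for the hemidesmosome list, 21.996 for matrix, 11.3 for junctions, 7.37 for cuticle and 8.67 over all autosomal introns.

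Regulators were hosts in several lists. Of 7 GATA factor genes with autosomal introns, only egl-27, which encodes an MTA-like protein with a GATA-type finger, was a host (signal 82.4, 3 sites). Of 16 epidermal transcription factor genes and 11 heterochronic genes, the sole host was blmp-1, which is in both lists. Of 247 nuclear hormone receptor genes, 4 were hosts (1.62%). nhr-31, which is known for its role in the excretory cell, held 2 peaks in its first intron (signals 97.2 and 81.1), nhr-21 held 2 (72.8 and 66.1), and nhr-19 and nhr-34 held 1 each. The nhr-34 peak overlapped no peak of replicate 1. Of 19 TGF-β pathway genes, 2 were hosts: the Smad gene daf-14 (signal 77.5) and the Ski-related gene daf-5 (signal 66.3). Of 17 genes of EGF, FGF and Ras signalling, 3 were hosts: lin-1 (signal 78.1), the scaffold gene soc-2 (signal 67.5, 3 sites) and the Ras exchange factor gene sos-1 (signal 49.3). In the insulin pathway, 1 of 45 was a host, the FoxO gene daf-16 (signal 67.9). In replicates 1 and 2 the daf-16 peak ranked 9859 and 549, the lin-1 peak 7376 and 564, and the daf-14 peak 346 and 4743.

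Of 102 ion channel genes 2 were hosts, the chloride channel gene clh-1 with 2 peaks (signals 70.9 and 52.8) and twk-1 (signal 53.6). The channel list held 6.07 peaks per Mb of intron, below the 8.67 over all autosomal introns. Of 134 UDP-glucuronosyltransferase and cytochrome P450 genes 2 were hosts, cyp-36A1 (signal 89.5) and ugt-25 (signal 85.4), at 14.9 peaks per Mb. No host was found among 68 homeobox, 28 Wnt pathway, 25 axon guidance, 16 seam cell and cell fusion, 14 amino acid breakdown (tyrosine, tryptophan and sulfur) or 75 ribosomal protein genes. At 1.14% of all genes, under 1 host is the background count by gene number for lists of this size. By intronic sequence they differ: axon guidance genes held 246.8 kb, homeobox genes 193.1 kb, Wnt genes 112.1 kb and ribosomal protein genes 16.6 kb. Against 8.67 peaks per Mb over all autosomal introns, the axon guidance and homeobox lists have a background above 1 peak. The counts of 0 were not tested and say little.

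Further groups were assembled around hosts after their names had been seen, so these counts describe the hosts and support nothing. Of 24 genes for phospholipid head groups and their methyl supply, 9 were hosts: mthf-1, pmt-2, eppl-1, sms-1, gpcp-2, cka-1, psd-1, C54G6.3 and pmt-1. Of the methyltransferase pair that makes phosphocholine in worms, pmt-2 had signal 118.9 and pmt-1 had 49.9, with 3 WGATAR sites. The pmt-1 peak ranked only 12797 in replicate 1 and 5413 in replicate 2. Of 19 genes of cyclic nucleotide signalling, 7 were hosts and held 12 peaks: pkg-2 and egl-4 (cGMP-dependent kinases), kin-1, the phosphodiesterase genes pde-4 and pde-3, the G-protein gene gpa-1, and saeg-1. Of 37 genes of central carbon metabolism 8 were hosts, with pck-2 the strongest, then the hexokinase gene hxk-1 (signal 68.7) and the glutamine synthetase gene gln-3 (signal 67.5). Of 20 stress-responsive transcription factor genes, 5 held 10 peaks: let-607, daf-16, hlh-30, jun-1 and atf-7. By RefSeq product names, 15 of 468 kinase genes (3.21%), 6 of 274 phosphatase genes (2.19%) and 13 of 560 transcription factor genes (2.32%) were hosts. The share over all autosomal genes with intronic sequence was 1.14%.

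Noncoding genes stood close to some summits. A noncoding gene lay within 500 bp of 46 of the 241 summits (19.1%) and of 12.3% of autosomal intronic bases. Inside one lay 11 summits (4.56%) and 2.02% of the bases. These differences were not tested. By class, ncRNA genes were near 27 summits, snoRNA genes near 12, piRNA genes near 7, antisense RNA and snRNA genes near 3 each, and a miRNA gene and a pseudogene near 1 each. The strongest nhr-31 peak lay inside an ncRNA gene, C26B2.12. An snoRNA gene stood 302 bp from the egl-27 summit and another 49 bp from the pxn-1 summit. No transcript levels were measured in these samples.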

How the data were processed

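ELT-3 ChIP-seq peaks of L1 larvae were taken as deposited. Per the deposited records, each replicate and the pooled replicates were called against control alignments, and IDR was run on those lists, which are labelled as holding peaks and background. No IDR peak has the exact bounds of a pooled peak, so which lists entered IDR was not settled. The sources used here name no aligner, caller, version or threshold. The signal value per peak is the authors' own, never negative, on a scale that differs between lists. It served only for ranks and filters inside one list. Read depth is unknown. Wilson intervals (95%) cover counting error over peaks only, and peaks were taken as independent, although some share a host. Lists on ce10 were not used.

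Genes came from Ensembl release 115 (WBcel235, which is ce11; 19973 protein-coding genes) and sequence from the RefSeq copy of that assembly. Coordinates are 1-based. Where gene spans overlap, the shorter gene was the host. On both strands, WGATAR, its form TGATAA, and the hexamer GAGAGA were sought. p-values are Benjamini-Hochberg adjusted over the 3 motifs, or over the 2 intergenic classes for each motif, where called adjusted, with a threshold of 0.05. The location tests were checked on randomly drawn intronic positions. The paired test was checked for WGATAR on such windows with and without planted sites. Fisher's exact tests were not checked in this way.

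Peaks, gene lists and tests were chosen with earlier results of these data known. Genes named were the hosts of the 20 highest-signal peaks and of 3 or more peaks, up to 4 hosts per list by signal, and those in the longest introns or farthest from the 5′ end. Names from the 7 lists assembled later, rol-3 and single noncoding genes were picked with their values in view. The listed symbols atf-5, exc-2, frm-9, hsf-2, ifa-2, lin-4, mom-3 and nca-1 matched no protein-coding gene. Alternatives covered other windows, flanks, intron lengths and start distances, 1 peak per host, other peak sets, each replicate alone, and leaving out peaks near gene starts. Python 3.11.15 was used with numpy 2.4.6, pandas 2.3.3, scipy 1.17.1 and matplotlib 3.10.9.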

Additional observations from a re-analysis of the deposited data

How the results depend on the processing

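Of 125 recomputed values over 15 results, 114 kept their direction and their side of the threshold (a count, to within 1.5 times). Values are differences in percentage points between intronic peaks and their comparison.

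The first-intron excess was 13.5 to 14.9 points with either replicate left out, the long-intron excess 23.4 to 25.3 and the later-start excess 18.4 to 21.6. Against flanks the range was 25.2 to 30.4 for WGATAR, 24.3 to 26.2 for TGATAA, and 18.2 to 21.96 for GAGAGA. Against near-start peaks, WGATAR was 10.03 to 19.98 points higher and GAGAGA 4.17 to 4.48. Against distal peaks, WGATAR stood at -2.63 to -2.33 and GAGAGA at -13.1 to -6.13, the former value, without replicate 1, passing the test (adjusted p = 0.0118, Fisher's exact test). The first-against-later-intron difference in WGATAR was 0.275 to 4.43, and that near later starts -9.61 to -5.34. The number of peaks was 214 in each case. The top-half signal difference was -3.74 without replicate 1 and reversed to 0.877 without replicate 2.

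WGATAR against near-start peaks no longer passed with a 25 bp window (8.31) or in the stronger 507 peaks of the IDR set (12.9). Those held 116 intronic peaks, and there the shortfall in overlap with both replicates passed (-12.6, p = 0.0227, Fisher's exact test). The signal shortfall passed for the 20% with the highest signal (-6.51) and in the highest-signal pooled peaks (-9.07, p = 0.0281, Fisher's exact test), where the GAGAGA shortfall against distal peaks passed too (-12.5, adjusted p = 0.0201, Fisher's exact test). The difference in WGATAR near later starts, -0.0849 as reported, reversed among peaks overlapped in each replicate (0.929) and without peaks near a gene start (7.59). The cause was not tested in any of these cases.

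The share overlapping both replicates has no value for pooled peaks or with a replicate left out. Values for introns of at least 1000 bp alone and for all intronic positions as the WGATAR background were chosen after seeing the data. No paired analysis was possible because the samples form 1 group. Unknown depth leaves the power to detect weak peaks unknown.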
